A study of Mus musculus with 6 samples.

Results

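The cadherin superfamily of adhesion proteins and the catenins that bind them were examined in stem cell factor-producing cells of mouse bone marrow. Genes were taken by their symbol on the array annotation, as cadherins with a number (Cdh), protocadherins (Pcdh), the giant cadherins Fat1 to Fat4 and Dchs1 and Dchs2, desmogleins (Dsg), desmocollins (Dsc), alpha-catenins (Ctnna) and delta-catenins (Ctnnd). This gave 74 genes of the 19938 that could be tested, and a gene with several rows was read from the row whose mean was highest. The desmocollin Dsc1, the giant cadherin Dchs2 and the gamma protocadherins were not analysed here. The alpha protocadherins lay on a row shared by many genes and were not tested as single genes. That row is given with the other unused rows below.

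Scf-GFP+ cells were sorted from the marrow of young adult C57BL/6 mice heterozygous for a knock-in that places green fluorescent protein in the stem cell factor gene, Kitl, and were sorted a second time before lysis. Whole bone marrow cells came from young adult wild-type C57BL/6 mice, with no second sort named. Each population was measured on 3 Affymetrix whole-transcript arrays, with RNA of 5000 cells amplified for each array, and values are the deposited log2 values. Genotype and handling changed together with the cell population, so their parts in a difference cannot be told apart. Sex was also unevenly spread over the groups, judged by the sex-linked genes given below.

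Cadherins are membrane proteins whose extracellular repeats, stiffened by calcium, bind cadherins on the neighbouring cell. The cytoplasmic tails of classical cadherins hold p120-catenin and beta-catenin, and beta-catenin hands the load to alpha-catenin and the actin cytoskeleton. Desmosomal cadherins connect to intermediate filaments instead, Fat and Dachsous cadherins relay planar polarity and growth signals, and the clustered protocadherins are best known from neurons, where each cell uses its own choice of them. In bone marrow, cadherin 11 and N-cadherin are known from osteoblasts and other mesenchymal cells.

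The arrays carried the labels' populations. Kitl measured 10.16 to 10.83 in Scf-GFP+ cells and 4.56 to 5.05 in whole marrow, which checks the sort and is no finding. The stromal markers outside the family, Lepr, Pdgfra, Pdgfrb and Cxcl12, all passed as higher in the sorted cells. Of 7 neutrophil markers, 5 were called lower, and their summed linear signal was 13704, 621 and 749 in Scf-GFP+ replicates 1, 2 and 3, against 36075 to 37242 in whole marrow, so replicate 1 stood apart from the other Scf-GFP+ arrays. Xist, the RNA of the inactive X chromosome, measured 11.50 and 11.81 in Scf-GFP+ replicates 1 and 2, against 4.99 to 5.10 in replicate 3 and the 3 whole marrow arrays. Eif2s3y, a gene of the Y chromosome, measured 4.41, 3.72 and 8.23 in Scf-GFP+ replicates 1, 2 and 3, against 7.33 to 7.97 in whole marrow. Genes of the naming rule whose call changed with a term for the Xist split, or whose fold moved by over 1.5 times, have that value beside them. In bulk RNA, more cells of a type and more RNA per cell cannot be told apart.

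In the sorted Scf-GFP+ cells 19 of the 74 genes were called higher and 0 lower. A call needed a limma adjusted p below 0.05 over all 19938 genes and a difference of at least 2-fold. Among all genes tested, 9.01% were called higher and 7.89% lower (16.9% in either direction), while 25.7% of the cadherin and catenin genes were called higher. At an unadjusted limma p below 0.05, 28 were higher and 2 lower, while 18.1% of all genes were higher and 19.6% lower at that limit. The 3 Scf-GFP+ arrays lay above all whole marrow arrays for 28 of the 74 genes (37.8%, against 19.0% of all genes) and below them for 8 (10.8%, against 26.4%). The median difference of the family was 0.02 on the log2 scale, beside -0.08 over all genes, since 47 of the 55 genes not called lay within 0.5 of 0. Beta protocadherins gave 9 of the 19 calls, and the other 10 were spread over 5 subfamilies.

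**Figure D1:**
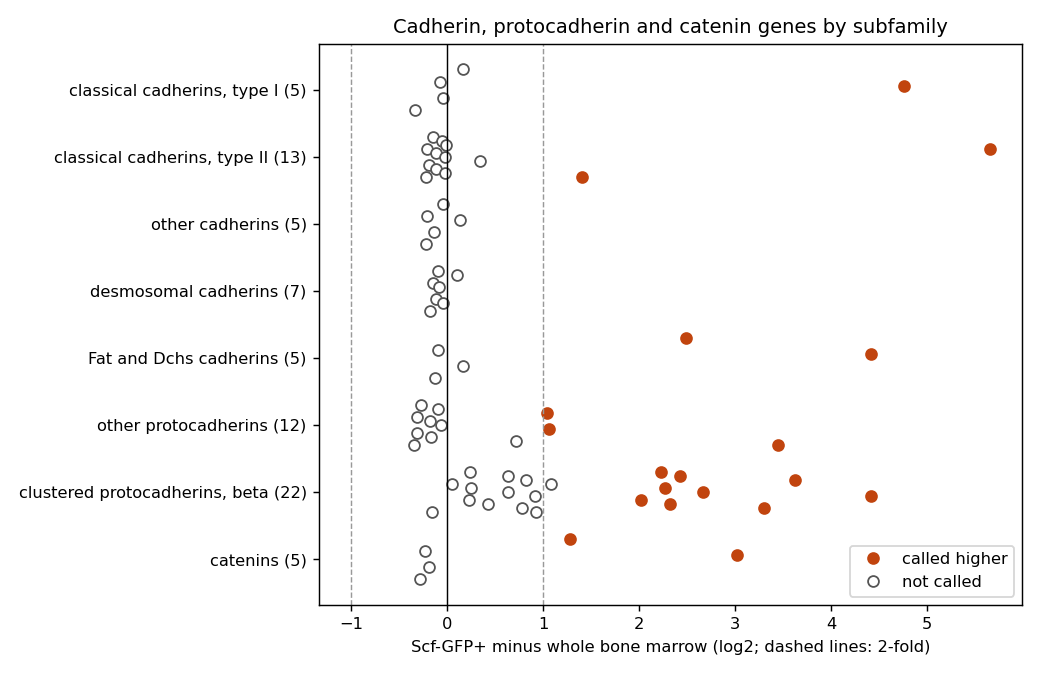
Each point is 1 of 74 genes, placed by its log2 difference, Scf-GFP+ minus whole bone marrow, in rows by subfamily with the number of genes in brackets. Filled points are the 19 genes called higher, and open points are the 55 genes not called, which lie between -0.35 and 1.08.

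Among the classical cadherins, Cdh11 and Cdh2 carried nearly the whole difference. Cdh11, a type II cadherin of mesenchymal cells and osteoblasts, measured 11.63, 11.75 and 11.74 in Scf-GFP+ cells, against 6.28, 5.90 and 5.95 in whole marrow. The Scf-GFP+ values were nearly equal and far above every whole marrow value, with a difference of 5.66 ± 0.13 SE on the log2 scale or 50.6-fold (n = 3 arrays per group, limma adjusted p = 2.1e-06). The 3 osteoblast markers measured, Ibsp, Alpl and Sp7, were called higher too, and their summed linear signal was 10913 to 11174 in Scf-GFP+ cells and 240 to 242 in whole marrow. Their part in the Cdh11 value was not tested. Cdh2, N-cadherin, a type I cadherin of neural and mesenchymal cells, measured 10.45, 10.75 and 10.81 in Scf-GFP+ cells, against 6.07, 5.72 and 5.94 in whole marrow. The groups did not overlap, and the difference was 4.76 ± 0.15 SE or 27.1-fold (limma adjusted p = 3.99e-06).

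Cdh5, the VE-cadherin of endothelial junctions, was the only other classical cadherin called, with the least even values. It measured 7.54, 8.09 and 6.55 in Scf-GFP+ cells, against 6.13, 6.11 and 5.74 in whole marrow. All Scf-GFP+ arrays were above whole marrow, but replicate 3 was nearer to it, and the difference was 1.40 ± 0.38 SE (limma adjusted p = 0.0345). The call was lost without Scf-GFP+ replicate 1 (1.33, adjusted p = 0.0971) or replicate 2 (1.05, adjusted p = 0.0675). Leaving out whole marrow replicate 1, 2 or 3 ended it as well, with adjusted p by limma of 0.0795, 0.0773 and 0.110. With a term for the Xist split, which compares Scf-GFP+ replicate 3 with whole marrow, Cdh5 differed by 0.55 (limma adjusted p = 0.277, from 0.00269 to 0.277 over the alternatives). Among the 9 endothelial markers listed besides Cdh5, 2 were called higher (Emcn and Clec14a), 1 lower (Pecam1) and 6 neither. Their summed linear signal was 841 to 1179 in Scf-GFP+ cells and 1061 to 1153 in whole marrow, with the lowest sum in the same Scf-GFP+ replicate 3. Pecam1, which leukocytes and platelets also carry, gave the largest part of the whole marrow sum. The mean log2 value of the 9 markers was 6.94, 6.72 and 6.45 in Scf-GFP+ replicates 1, 2 and 3, against 6.25, 6.30 and 6.25 in whole marrow. The part of endothelial cells in the Cdh5 value was not tested.

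The other classical cadherins showed no call. The 4 remaining type I genes differed by -0.34 to 0.16. Cdh1, the E-cadherin of epithelia, measured 5.97, 5.87 and 5.80 in Scf-GFP+ cells, against 6.45, 5.92 and 6.28 in whole marrow (-0.34 ± 0.16 SE, limma adjusted p = 0.165), so the groups overlapped. Cdh15, the M-cadherin of muscle, measured 6.56, 6.53 and 7.29 in Scf-GFP+ cells, against 6.53, 6.83 and 6.56 in whole marrow, with only Scf-GFP+ replicate 3 above the rest. Cdh3, P-cadherin, and Cdh4, R-cadherin, differed by -0.04 and -0.08. The 11 remaining type II genes differed by -0.22 to 0.34, among them Cdh6, a kidney and neural cadherin, at -0.15. Cdh18 gave the upper end, with 5.84 in Scf-GFP+ replicate 3 and 4.48 to 5.04 on the other 5 arrays. For 6 of the 13 type II genes both group means lay below the lower quartile of every array, where arrays resolve little, and such a value is not read as absence.

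Cadherins outside the classical types, and those of desmosomes, were not called either. The 5 other cadherins differed by -0.22 to 0.13. Cdh13, T-cadherin, which lacks a cytoplasmic tail and binds adiponectin, measured 6.55, 6.38 and 6.42 in Scf-GFP+ cells, against 6.44, 6.39 and 6.13 in whole marrow (0.13 ± 0.12 SE, limma adjusted p = 0.502). Cdh16 and Cdh17, named for kidney and for liver and intestine, differed by -0.21 and -0.14. Cdh23, which builds the tip links of hair cells together with Pcdh15, differed by -0.22, and Cdh26 by -0.04. All 7 desmogleins and desmocollins measured lay between 3.86 and 5.04 on every array, below the lower quartile of each array, and differed by -0.18 to 0.10. Desmoglein 2 (Dsg2) and desmocollin 2 (Dsc2), the forms with the widest expression in epithelia, differed by -0.10 and -0.18. The 5 epithelial markers listed, Epcam and keratins, had no call, with a summed linear signal of 316 to 321 in Scf-GFP+ cells and 364 to 418 in whole marrow.

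Fat1 and Fat4 stood apart from the rest of the giant cadherins. Fat1, whose tail binds regulators of actin, measured 10.03, 10.72 and 10.77 in Scf-GFP+ cells, against 6.12, 5.95 and 6.23 in whole marrow. The groups did not overlap, and Fat1 was 21.2-fold higher (4.41 ± 0.22 SE, limma adjusted p = 2.1e-05). Fat4, the receptor of the Dachsous cadherin Dchs1, measured 8.75, 8.25 and 9.09 in Scf-GFP+ cells, against 6.14, 6.00 and 6.49 in whole marrow. It was 5.61-fold higher with no overlap (2.49 ± 0.24 SE, limma adjusted p = 0.000429). Dchs1 itself measured 6.51, 6.58 and 6.30 in Scf-GFP+ cells, against 6.24, 6.40 and 6.27 in whole marrow, and its groups overlapped (0.16 ± 0.12 SE, limma adjusted p = 0.385). Fat2 differed by -0.10 and Fat3 by -0.13, and neither was called. Fjx1, a kinase that modifies the cadherin domains of Fat and Dachsous proteins, differed by -0.01.

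**Figure D2:**
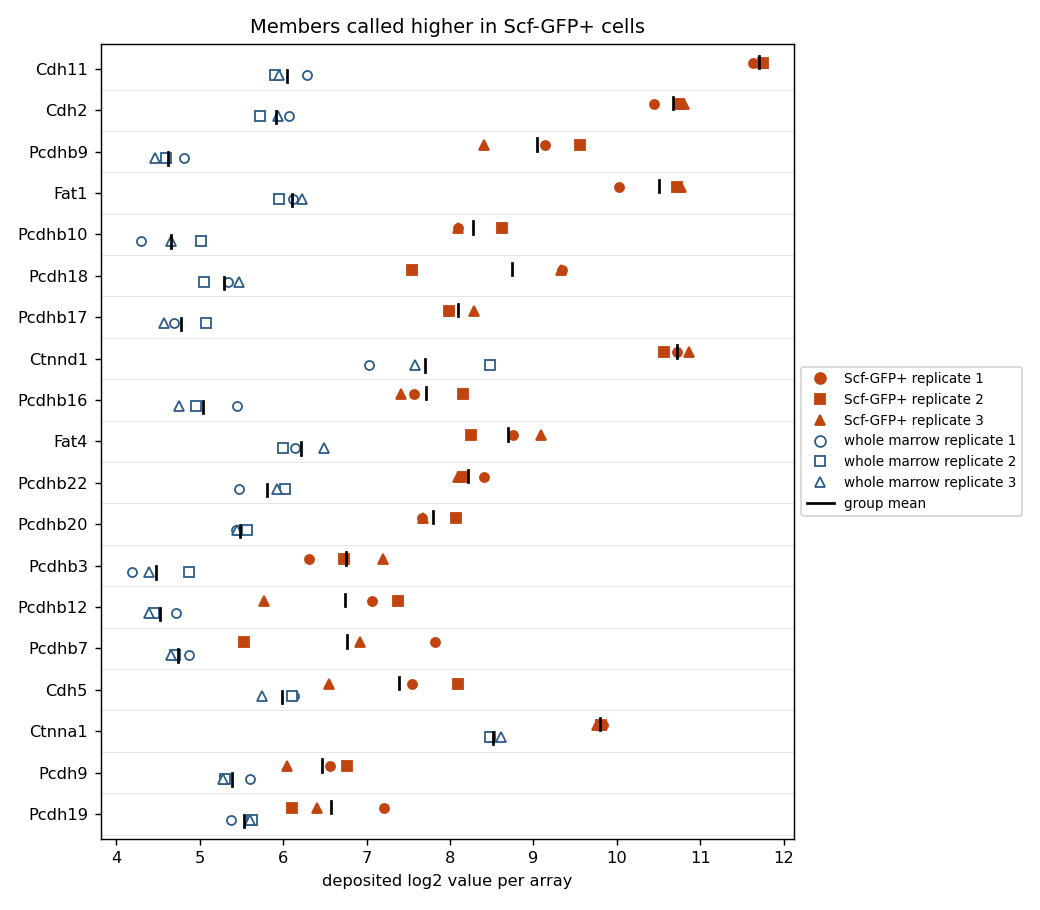
Deposited log2 values of the 19 genes called higher in Scf-GFP+ cells, ordered by difference, with filled symbols for the 3 Scf-GFP+ arrays and open symbols for the 3 whole marrow arrays; vertical ticks are group means. The groups do not overlap for any of the 19 genes, and the Scf-GFP+ arrays spread most for Pcdhb7, from 5.53 to 7.82, and least for Ctnna1, from 9.76 to 9.83.

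The protocadherins outside the clusters differed from one another. Of 12 genes measured, 3 were called higher, against 9.01% of all genes, and 9 were not called. Pcdh18, a delta protocadherin, measured 9.34, 7.54 and 9.33 in Scf-GFP+ cells, against 5.34, 5.05 and 5.47 in whole marrow. Replicate 2 was well below the other Scf-GFP+ arrays but above whole marrow, and the difference was 3.45 ± 0.48 SE or 10.9-fold (limma adjusted p = 0.00237). Without replicate 2 it was 4.05, and with the term for the Xist split 4.04. Pcdh9, another delta protocadherin, measured 6.56, 6.76 and 6.05 in Scf-GFP+ cells, against 5.60, 5.30 and 5.28 in whole marrow (1.06 ± 0.20 SE, limma adjusted p = 0.00949). It was under the 2-fold limit without Scf-GFP+ replicate 2 (0.91, limma adjusted p = 0.0265) and lost the call with the term for the Xist split (0.65, limma adjusted p = 0.0845, from 0.000665 to 0.0845 over the alternatives).

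Pcdh19, an X-linked delta protocadherin whose loss in humans causes an epilepsy of females, measured 7.21, 6.10 and 6.40 in Scf-GFP+ cells, against 5.37, 5.63 and 5.60 in whole marrow. The highest value was in 1 of the 2 arrays with high Xist, the other of these gave the lowest Scf-GFP+ value, and the difference was 1.04 ± 0.28 SE (limma adjusted p = 0.0355). The call ended without Scf-GFP+ replicate 1 (0.72, limma adjusted p = 0.0256, under 2-fold) or replicate 3 (1.12, limma adjusted p = 0.0608). Without whole marrow replicate 1, 2 or 3 the limma adjusted p was 0.110, 0.0775 and 0.0876. With the term for the Xist split it was 0.254, and with the replicate number as a block 0.0651, so over the alternatives it ran from 0.0190 to 0.254.

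Pcdh1, which is also made by airway epithelium, measured 6.42, 6.43 and 6.62 in Scf-GFP+ cells, against 5.83, 6.02 and 5.48 in whole marrow. It passed the p-value limit but stayed under 2-fold (0.72 ± 0.16 SE, limma adjusted p = 0.0173). The other 8 genes of this subfamily differed by -0.35 to -0.07. Pcdh12, a protocadherin of endothelial cells, measured 6.42, 6.05 and 6.32 in Scf-GFP+ cells, against 6.72, 6.64 and 6.49 in whole marrow. Its groups did not overlap, and at -0.35 ± 0.13 SE it did not pass (limma adjusted p = 0.107). Pcdh8 (-0.32), Pcdh10 (-0.31), Pcdh7 (-0.17) and Pcdh17 (-0.10), all of the delta group, were not called, nor was Pcdh15 at -0.18.

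The promoters of called genes are shown to set their letters beside the shared direction. RefSeq promoters (assembly GRCm38.p6) were matched for 6 of the 8 called genes looked for, the other 11 called genes were not searched, and the 250 bases before the annotated start were searched on both strands for CCAAT (the CCAAT box), for GGGCGG (the GC box), for TATAAA (the TATA box) and for the palindrome bound by early B cell factors. With 2 starts each for Ctnnd1 and Pcdh9 there were 8 promoters. CCAAT was found in 6 of the 8 (those of Ctnnd1, Pcdh18, Pcdh19 and Pcdh9), against 33.8% of 32851 promoters of the same length, and GGGCGG in 2 of the 8 (Pcdh18 and Pcdh19), against 32.7%. The 2 Pcdh9 promoters overlap and hold the same CCAAT, so they are not separate matches. By gene, CCAAT was found in 4 of 6, and Fat1 and Fat4 had none. So few genes do not show an excess. TATAAA was found in 1 (Ctnnd1, at another start than the one printed), against 12.4%, and the palindrome in 0, against 0.779%. Matches of different motifs can share bases at their ends. Capitals mark CCAAT or its reverse complement, and 1 promoter is shown for each of the 4 genes with a match. The Ctnnd1 window holds 2 matches, and the other windows 1 each.
Pcdh18, chr3:49757317-49757566, strand -: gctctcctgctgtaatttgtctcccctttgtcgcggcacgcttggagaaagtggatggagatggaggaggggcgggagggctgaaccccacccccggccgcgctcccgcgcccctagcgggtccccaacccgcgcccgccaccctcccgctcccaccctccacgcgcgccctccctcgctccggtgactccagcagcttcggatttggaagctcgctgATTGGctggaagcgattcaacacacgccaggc
Pcdh19, chrX:133688994-133689243, strand -: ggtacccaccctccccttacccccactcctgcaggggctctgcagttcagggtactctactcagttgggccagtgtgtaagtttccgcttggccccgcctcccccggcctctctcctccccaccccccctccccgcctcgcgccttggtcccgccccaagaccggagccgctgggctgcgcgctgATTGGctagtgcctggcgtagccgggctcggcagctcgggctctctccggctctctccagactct
Pcdh9, chr14:93890680-93890929, strand -: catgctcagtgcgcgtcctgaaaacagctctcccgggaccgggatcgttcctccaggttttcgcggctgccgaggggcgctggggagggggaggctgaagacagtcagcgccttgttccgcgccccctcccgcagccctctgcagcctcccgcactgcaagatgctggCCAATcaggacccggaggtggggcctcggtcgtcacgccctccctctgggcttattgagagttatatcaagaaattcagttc
Ctnnd1, chr2:84658978-84659227, strand -: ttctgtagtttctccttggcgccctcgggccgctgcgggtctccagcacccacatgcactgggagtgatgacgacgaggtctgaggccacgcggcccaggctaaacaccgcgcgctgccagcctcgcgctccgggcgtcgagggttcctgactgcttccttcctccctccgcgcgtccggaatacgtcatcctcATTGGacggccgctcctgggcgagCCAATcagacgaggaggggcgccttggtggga
The matches in Pcdh18 and Pcdh19 begin 32 and 65 bases before the start, that of Pcdh9 begins 82 bases before it, and those of Ctnnd1 begin 56 and 32 bases before it. A match describes the letters and is no evidence of a bound factor.

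The beta protocadherins formed the largest group of calls. These genes, each with a single coding exon, lie side by side in 1 cluster, and all 22 that were measured are neighbours in RefSeq. Of the 22, 9 were called higher and 0 lower (40.9%, against 9.01% of all genes higher), while outside the cluster 10 of 52 family members were called higher (19.2%). The median difference of the 22 genes was 0.92, and all but Pcdhb6 (-0.16) were above 0. In 16 of them every Scf-GFP+ array lay above every whole marrow array, against 19.0% of all genes. The copies resemble each other closely, so which of them a probe set measured is uncertain, and they are not independent counts.

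The largest difference of the cluster was that of Pcdhb9. It measured 9.14, 9.56 and 8.41 in Scf-GFP+ cells, against 4.81, 4.60 and 4.46 in whole marrow, 21.4-fold higher with no overlap (4.42 ± 0.29 SE, limma adjusted p = 7.28e-05). With the term for the Xist split it differed by 3.79. Its neighbour Pcdhb10 measured 8.09, 8.62 and 8.10 in Scf-GFP+ cells, against 4.30, 5.02 and 4.65 in whole marrow (3.62 ± 0.23 SE, limma adjusted p = 6.61e-05). Pcdhb17 measured 7.99, 7.99 and 8.29 in Scf-GFP+ cells, against 4.69, 5.08 and 4.57 in whole marrow (3.30 ± 0.17 SE, limma adjusted p = 2.43e-05). All Scf-GFP+ arrays of these 3 genes stood clear of whole marrow, and those of Pcdhb17 were the most even.

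Further along the cluster, Pcdhb16 measured 7.57, 8.16 and 7.41 in Scf-GFP+ cells, against 5.44, 4.95 and 4.75 in whole marrow (2.67 ± 0.26 SE). Pcdhb22 measured 8.41, 8.16 and 8.10 in Scf-GFP+ cells, against 5.47, 6.02 and 5.93 in whole marrow (2.42 ± 0.18 SE). Pcdhb20 measured 7.66, 8.07 and 7.68 in Scf-GFP+ cells, against 5.43, 5.57 and 5.45 in whole marrow (2.32 ± 0.14 SE). By limma their adjusted p ran between 5.78e-05 and 0.000414, and in each gene every Scf-GFP+ array was above every whole marrow array.

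Pcdhb3, Pcdhb12 and Pcdhb7 were the other called genes. Pcdhb3 measured 6.31, 6.73 and 7.20 in Scf-GFP+ cells, against 4.19, 4.87 and 4.39 in whole marrow (2.27 ± 0.27 SE, limma adjusted p = 0.00112). Pcdhb12 measured 7.07, 7.38 and 5.77 in Scf-GFP+ cells, against 4.71, 4.45 and 4.39 in whole marrow, with replicate 3 the lowest (2.23 ± 0.40 SE, limma adjusted p = 0.00724). With the term for the Xist split Pcdhb12 differed by 1.25 (limma adjusted p = 0.0121, from 0.000212 to 0.0322 over the alternatives). Pcdhb7 measured 7.82, 5.53 and 6.92 in Scf-GFP+ cells, against 4.87, 4.70 and 4.65 in whole marrow, with replicate 2 the lowest (2.02 ± 0.53 SE, limma adjusted p = 0.0309). Without that array the difference was 2.63. Pcdhb7 lost the call without Scf-GFP+ replicate 3 (limma adjusted p = 0.0819) or whole marrow replicate 1, 2 or 3 (0.0777, 0.0834 and 0.0928), and with the term for the Xist split (0.141, from 0.00173 to 0.141 over the alternatives).

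The Scf-GFP+ array that was lowest changed from gene to gene. Among the 9 called beta protocadherins the lowest Scf-GFP+ value was in replicate 1 for 4 genes, in replicate 2 for 1 and in replicate 3 for 4. The median SD over 3 arrays was 0.30 for the 22 genes in Scf-GFP+ cells, against 0.167 in whole marrow, while over all genes these medians were 0.165 and 0.162. The range over Scf-GFP+ arrays was wider than that over whole marrow arrays for 14 of the 22 genes. The whole marrow means of Pcdhb3, Pcdhb7, Pcdhb9, Pcdhb10, Pcdhb12, Pcdhb16 and Pcdhb17, among others, lay below the lower quartile of every array. Arrays resolve little there, and the part of low signal in these spreads was not tested. In RefSeq order, 4 of the first 11 genes of the cluster and 5 of the last 11 were called, so calls were spread along it.

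**Figure D3:**
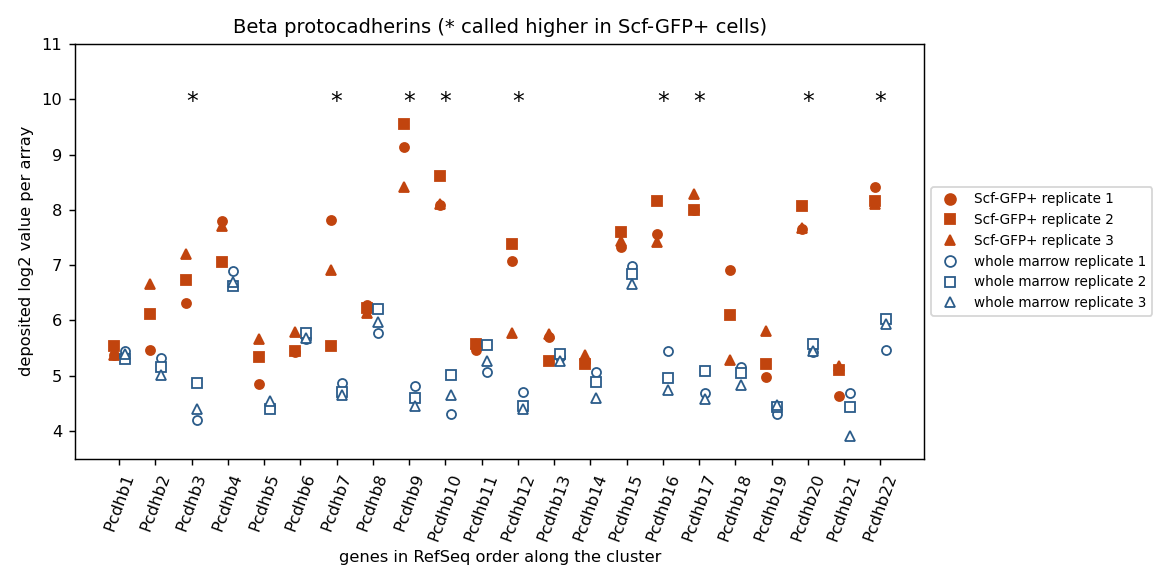
Deposited log2 values of the 22 beta protocadherins in RefSeq order along the cluster, with Scf-GFP+ arrays (filled) left of whole marrow arrays (open) for each gene. Stars mark the 9 genes called higher. Of the genes not called, some have groups that overlap, such as Pcdhb8, Pcdhb11 and Pcdhb13. Others, such as Pcdhb4, Pcdhb5 and Pcdhb19, lie above whole marrow on every Scf-GFP+ array.

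The 13 beta protocadherins not called differed by -0.16 to 1.08. Pcdhb18 was at the upper end, with 6.92, 6.09 and 5.28 in Scf-GFP+ cells, against 5.16, 5.04 and 4.84 in whole marrow. Its 1.08 ± 0.39 SE did not pass (limma adjusted p = 0.0873), but it was called without Scf-GFP+ replicate 3 (1.49, limma adjusted p = 0.0113, from 0.0113 to 0.678 over the alternatives). With the term for the Xist split Pcdhb18 differed by 0.27. Pcdhb19 (0.93 ± 0.22 SE), Pcdhb5 (0.82 ± 0.21), Pcdhb4 (0.78 ± 0.21) and Pcdhb15 (0.63 ± 0.13) passed the p-value limit but stayed under 2-fold. Pcdhb2, at 0.91 ± 0.29 SE, did not pass (limma adjusted p = 0.0617). Without Scf-GFP+ replicate 1, Pcdhb2, Pcdhb5 and Pcdhb19 were called, at 1.21, 1.04 and 1.10, and with the term for the Xist split they were called at 1.49, 1.20 and 1.40. Without replicate 2 Pcdhb4 was called, at 1.01. Pcdhb1, Pcdhb8, Pcdhb11 and Pcdhb13 had overlapping groups and differed by 0.05 to 0.25.

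Of the catenins, the 2 widely expressed forms were called higher and the 3 forms known from nerve, heart or testis were not. Ctnnd1, p120-catenin, which binds next to the membrane and keeps classical cadherins at the cell surface, measured 10.72, 10.56 and 10.87 in Scf-GFP+ cells, against 7.03, 8.48 and 7.58 in whole marrow. The whole marrow arrays were uneven, yet all lay below every Scf-GFP+ array, and the difference was 3.02 ± 0.35 SE or 8.11-fold (limma adjusted p = 0.000973). Ctnna1, the alpha-catenin that ties beta-catenin to actin, measured 9.83, 9.81 and 9.76 in Scf-GFP+ cells, against 8.48, 8.48 and 8.61 in whole marrow. Arrays within a group were nearly equal, and Ctnna1 was 2.42-fold higher (1.28 ± 0.10 SE, limma adjusted p = 0.000147). Ctnnd2 (-0.28 ± 0.15 SE), Ctnna3 (-0.23 ± 0.12) and Ctnna2 (-0.19 ± 0.10) were not called, with limma adjusted p between 0.201 and 0.236.

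Genes that work with cadherins but lie outside the family were read from the same fit. In Scf-GFP+ cells 6 of 35 such genes were called higher and 0 lower, against 9.01% and 7.89% of all genes, and at an unadjusted limma p below 0.05 there were 11 higher and 4 lower, against 18.1% and 19.6% of all genes. Their median difference was -0.01. Jup, plakoglobin, which can take the place of beta-catenin and also serves desmosomes, measured 8.82, 8.49 and 8.85 in Scf-GFP+ cells, against 6.73, 6.39 and 7.14 in whole marrow (1.97 ± 0.21 SE, limma adjusted p = 0.000693). Ctnnb1, beta-catenin itself, measured 9.89, 9.78 and 9.92 in Scf-GFP+ cells, against 8.48, 9.22 and 8.95 in whole marrow. Its groups did not overlap, and it passed the p-value limit just under 2-fold (0.98 ± 0.19 SE, limma adjusted p = 0.0102). It passed 2-fold without Scf-GFP+ replicate 2 (1.02), without whole marrow replicate 2 (1.15) or without whole marrow replicate 3 (1.01).

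Among linkers to actin, Afdn, the afadin that anchors nectins, was higher by 1.86 ± 0.17 SE, Lima1, which joins alpha-catenin to actin, by 1.71 ± 0.18, and Ctnnal1, a relative of alpha-catenin, by 1.33 ± 0.23. Ctnnal1 lost the call with the term for the Xist split (1.03, limma adjusted p = 0.0759, from 0.00399 to 0.0759 over the alternatives). Vcl, vinculin, which strengthens junctions under tension, measured 9.04, 8.82 and 9.41 in Scf-GFP+ cells, against 8.46, 8.54 and 8.73 in whole marrow, and was not called (0.51 ± 0.17 SE, limma adjusted p = 0.0748). The scaffold Magi1 (0.69 ± 0.11) and the LIM protein Ajuba (0.79 ± 0.17) passed the p-value limit under 2-fold. Dsp, desmoplakin, the desmosomal link to intermediate filaments, measured 6.36, 5.86 and 5.98 in Scf-GFP+ cells, against 6.31, 6.51 and 6.64 in whole marrow (-0.42 ± 0.16 SE, limma adjusted p = 0.115).

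Of the 4 nectins, adhesion molecules of the immunoglobulin family that meet cadherins at junctions, only Nectin3 was called. It measured 8.38, 8.50 and 8.54 in Scf-GFP+ cells, against 7.17, 7.14 and 7.13 in whole marrow (1.33 ± 0.10 SE, limma adjusted p = 0.000127). Of 12 cadherin superfamily genes outside the family symbols, Clstn1, a calsyntenin that links cargo to kinesin, was called, at 8.72, 8.96 and 9.11 in Scf-GFP+ cells, against 6.91, 7.27 and 7.06 in whole marrow (1.85 ± 0.15 SE, limma adjusted p = 0.000199). Celsr3, a planar polarity cadherin, passed the p-value limit under 2-fold and was lower in Scf-GFP+ cells (-0.48 ± 0.11 SE, limma adjusted p = 0.0173). Adam10, a protease that cuts N-cadherin and E-cadherin at the cell surface, differed by -0.35 ± 0.31 SE with overlapping groups.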

How the data were processed

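Expression was measured on 6 Affymetrix Mouse Gene 1.0 ST arrays, 3 per group. The authors deposited log2 values for 28940 rows. RMA, affy and limma appear in the submitters' processing notes, without versions or roles. RMA summaries carry no detection call and differ in probe response, so levels of family genes are not compared with each other. The summed linear signals of marker lists are weighted by probe response. They are read between arrays only, apart from the part of Pecam1 in the endothelial sum. Array medians lay between 6.564 and 6.631. A single symbol was annotated on 21789 rows, more than 1 on 1621, and no symbol on 5530. A RefSeq table (GRCm38.p6) gave current symbols by Entrez identifier and lacked those of 91 rows. For each of 19938 genes the row with the highest mean was used. The array annotation's build is not given in the sources used here, so no gene coordinates are printed apart from RefSeq promoters.

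The comparison used lmFit and eBayes of limma 3.58.1 in R 4.3.3 with no covariates, as Scf-GFP+ minus whole bone marrow. A call needed at least 2-fold and a p, adjusted by Benjamini-Hochberg over every gene tested, below 0.05. SE is limma's moderated standard error. The fit was tested on simulated data. Per the labels the arrays hold independent aliquots, with no word on whether these came from different animals. By Xist and Eif2s3y, Scf-GFP+ replicate 3 came from another animal or pool than replicates 1 and 2, and the rest is not known. The p-values therefore reflect only how these samples spread, which may be technical in part, and the number of arrays limits the precision.

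Named genes were all called family members, the 5 per direction with the largest difference among those not called, a fixed list of known members and called junction partners; further members and partner genes were added to describe their groups after values were seen, and not all of these were recomputed under the alternatives. The family, lists and tests were chosen with earlier results of these data known. Same-numbered arrays of the groups correlated at -0.063, -0.022 and 0.066 in their deviations from group means. Arrays with different numbers correlated at -0.087 to 0.108. This gave no sign of pairing, but so few arrays cannot decide whether the numbers mark shared animals or days.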

Additional observations from a re-analysis of the deposited data

Results flagged for a closer look

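Rows not used for the family were picked here if they differed by at least 2-fold, with every Scf-GFP+ array above every whole marrow array. The other unused rows were not called, and those of Fat3 are given below. Second rows of Cdh18 and Cdh24 differed by 0.06 and 0, and that of Pcdh15 by -0.25, below whole marrow on every array. Rows shared by the alpha protocadherins and by Dsg1 genes differed by -0.08 and -0.15 (limma over all 28940 rows, adjusted p = 0.614 and 0.444). A second row of Pcdh9 measured 6.34, 6.62 and 6.67 in Scf-GFP+ cells, against 5.13, 4.84 and 4.81 in whole marrow. It differed by 1.62 ± 0.14 SE on the log2 scale (limma over all 28940 rows, adjusted p = 0.00042), more than the row that stood for Pcdh9 (1.06).

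There were also 3 rows whose annotation names Cdh11 together with 6820431F20Rik and 2610005L07Rik. They differed by 1.04, 1.13 and 1.15. The first measured 12.31, 12.09 and 11.82 in Scf-GFP+ cells, against 10.93, 11.05 and 11.12 in whole marrow. The other 2 measured 9.81 to 10.23 and 11.35 to 11.96 in Scf-GFP+ cells, against 8.84 to 8.92 and 10.40 to 10.57 in whole marrow. The row of Cdh11 alone differed by 5.66. Which of the named transcripts gave the signal of the shared rows was not tested.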

How the results depend on the processing

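The counts of calls and the genes chosen by the naming rule were recomputed under 16 alternatives, of which fitting every row on its own was chosen after seeing the data. Of the 19 family members called higher, 15 kept the call under every alternative that tested them, and the exceptions were Cdh5, Pcdh9, Pcdh19 and Pcdhb7. The number called higher ran from 16 to 20 when single arrays were left out, was 19 with the replicate number as a block (18 of them shared with the unblocked fit; Pcdh19 was lost at an adjusted p of 0.0651 and Pcdhb18 was gained) and 19 with the term for the Xist split (15 shared). Without the dimmest 30% of genes it was 15, since Pcdh9, Pcdhb3, Pcdhb7 and Pcdhb12 were then not tested. It was 24 with no fold limit and 16 at an adjusted p below 0.01. The number called lower was 0 throughout. With no fold limit, 2758 genes were higher and 2635 lower among all genes, and 1 junction partner gene, Celsr3, was lower. No called value changed sign. The block changed no other call among the named genes. With 3 arrays per group and 18 of 74 members below the lower quartile of every array in both groups, small differences of dim genes could not be resolved.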

Other observations

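Fat3 had 15 rows in the table, and the row with the highest mean, which stood for the gene, differed by -0.13. None of the 15 rows was called by limma, with differences from -0.13 to 1.56. Another bright row measured 6.63, 6.76 and 6.39 in Scf-GFP+ cells, against 6.21, 6.24 and 6.00 in whole marrow. Its groups did not overlap (0.44 ± 0.13 SE, limma adjusted p = 0.0599 over all rows). In the row at the upper end the Scf-GFP+ arrays measured 5.17, 7.29 and 8.50, against 5.46, 5.42 and 5.40 in whole marrow (adjusted p = 0.205 over all rows), so 2 of 3 Scf-GFP+ arrays were above whole marrow and 1 was below. With the mean of all rows, Fat3 differed by 0.21 (adjusted p = 0.263, from 0.263 to 0.712 over the alternatives).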
